A study of Rattus norvegicus with 8 samples.

Results

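The IGF and insulin receptor axis was followed through 10 genes: the ligands Igf1 and Igf2, the receptors Igf1r, Insr and Ghr, and the binding proteins Igfbp2, Igfbp3, Igfbp4, Igfbp5 and Igfbp6. They were chosen by name, and each was read from the probe set annotated to its symbol. Insr alone had a second probe set, and its brighter one on average was used. All 10 members were measured, out of 14506 genes with a uniquely named probe set. RNA came from the hypothalamus of female Sprague-Dawley rats aged 21 days and was hybridised to Affymetrix Rat Gene 1.0 arrays, which read each gene through a set of short probes.

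The 8 arrays form 4 groups of 2. CR-l offspring were born to calorie-restricted mothers and belong to the leptin arm, CR-s offspring were born to restricted mothers and belong to the saline arm, Con-l offspring were born to normally fed mothers and belong to the leptin arm, and Con-s offspring were born to normally fed mothers and belong to the saline arm. Restriction removed 50% of calories from gestation day 11 to 21 and continued after birth. Saline or leptin, a hormone of adipose tissue that reduces feeding through the hypothalamus, was given from postnatal day 2 to 8, so the tissue was sampled after treatment had ended. The labels do not settle whether pups or mothers were injected, nor whether a sample pools animals, and the p-values measure only the spread between these samples.

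IGF1 and IGF2 are small hormones related to insulin that act through the IGF1 receptor, a tyrosine kinase closely related to the insulin receptor. Growth hormone acts through its own receptor and drives Igf1 transcription by way of JAK2 and STAT5. The binding proteins carry IGFs in blood and tissue fluid, prolong their life and limit their access to the receptor. In rodent brain, Igf2 and Igfbp2 are made largely by meninges and choroid plexus, Igf1 by neurons, and the insulin receptor of hypothalamic neurons takes part in the control of food intake.

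Median intensities lay between 111.8 and 114.1 on the 8 arrays, and replicate arrays correlated at 0.9947 to 0.9955 over probe sets. The interquartile range of log2 values was 2.92 for CR-s replicate B and 3.01 to 3.08 for the other 7 arrays. Of 16 listed markers of hypothalamic neurons 15 were measured, among them Pmch with intensities of 2187 to 2955, Hcrt with 593 to 864 and Agrp with 165.1 to 320.9. Others of this list were dim: Pomc at 74.1 to 95.6 and Ghrh at 58.0 to 72.6 lay below every array median. Con-l replicate A stood apart in the summed intensity of pituitary markers, which was 887 there and 328 to 388 on the other arrays. This gap lay mostly in Cga and was not that of the whole list. Tshb was also highest on that array, and the remaining pituitary markers lay within the range of the other arrays.

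The promoters of Igfbp3, Igfbp2, Igfbp5 and Igf1r are shown because these 4 genes, with Igf2, had the smallest p-values of the members in the diet comparison. Each is the stretch of 150 bases just before the RefSeq transcription start in the GRCr8 assembly, on the strand given. Capitals mark the E-box CACGTG and the GC box GGGCGG.

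Igfbp3, chr14:86277945-86278094, minus strand: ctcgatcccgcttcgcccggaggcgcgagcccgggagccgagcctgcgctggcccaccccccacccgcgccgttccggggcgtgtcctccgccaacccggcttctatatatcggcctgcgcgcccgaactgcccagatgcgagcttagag
Igfbp2, chr9:81864661-81864810, plus strand: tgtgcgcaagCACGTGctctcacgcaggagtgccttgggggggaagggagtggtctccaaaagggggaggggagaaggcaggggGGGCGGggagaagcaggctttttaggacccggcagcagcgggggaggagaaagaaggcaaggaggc
Igfbp5, chr9:81914188-81914337, minus strand: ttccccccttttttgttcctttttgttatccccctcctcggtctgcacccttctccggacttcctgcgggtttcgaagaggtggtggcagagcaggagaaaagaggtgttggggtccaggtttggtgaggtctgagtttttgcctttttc
Igf1r, chr1:130959847-130959996, plus strand: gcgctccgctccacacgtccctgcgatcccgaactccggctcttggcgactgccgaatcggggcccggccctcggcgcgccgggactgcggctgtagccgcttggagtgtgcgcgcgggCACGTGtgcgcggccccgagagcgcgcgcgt

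All 10 members had a promoter in the RefSeq table. In the 250 bases before the start, searched on both strands, the E-box occurred in Igfbp2 and Igf1r, and 5.59% of 33469 promoter windows hold it. The GC box occurred in Igfbp2, Igf1r and 1 of 2 Igf2 promoters (30.5% of windows). The TATA box TATAAA occurred in Igfbp4 (12.9%), the FOXO core TGTTTAC in Insr and Igfbp6 (3.21%) and the STAT motif TTCNNNGAA in no member (7.67%). These matches describe letters only. Igfbp2 and Igfbp5 are neighbours on chromosome 9, and Igfbp3 lies beside Igfbp1 on chromosome 14.

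Diet, averaged over saline and leptin (4 CR arrays against 4 Con arrays), was the comparison in which members passed the test. Igfbp3, the main carrier of IGFs in blood, rose 1.34-fold in restricted offspring, and Igfbp2, a binding protein abundant in developing brain, fell 1.32-fold. Igf2 and Igfbp5 differed downwards and Igf1r upwards without passing, with arrays of the diets not overlapping. Igf1, Insr, Ghr, Igfbp4 and Igfbp6 had overlapping diets. A gene passed at an adjusted p under 0.05 over all genes in limma. Of the 10 members 1 passed higher and 1 lower, where 0.324% and 0.882% of all genes did (1.21% in all).

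**Figure D1:**
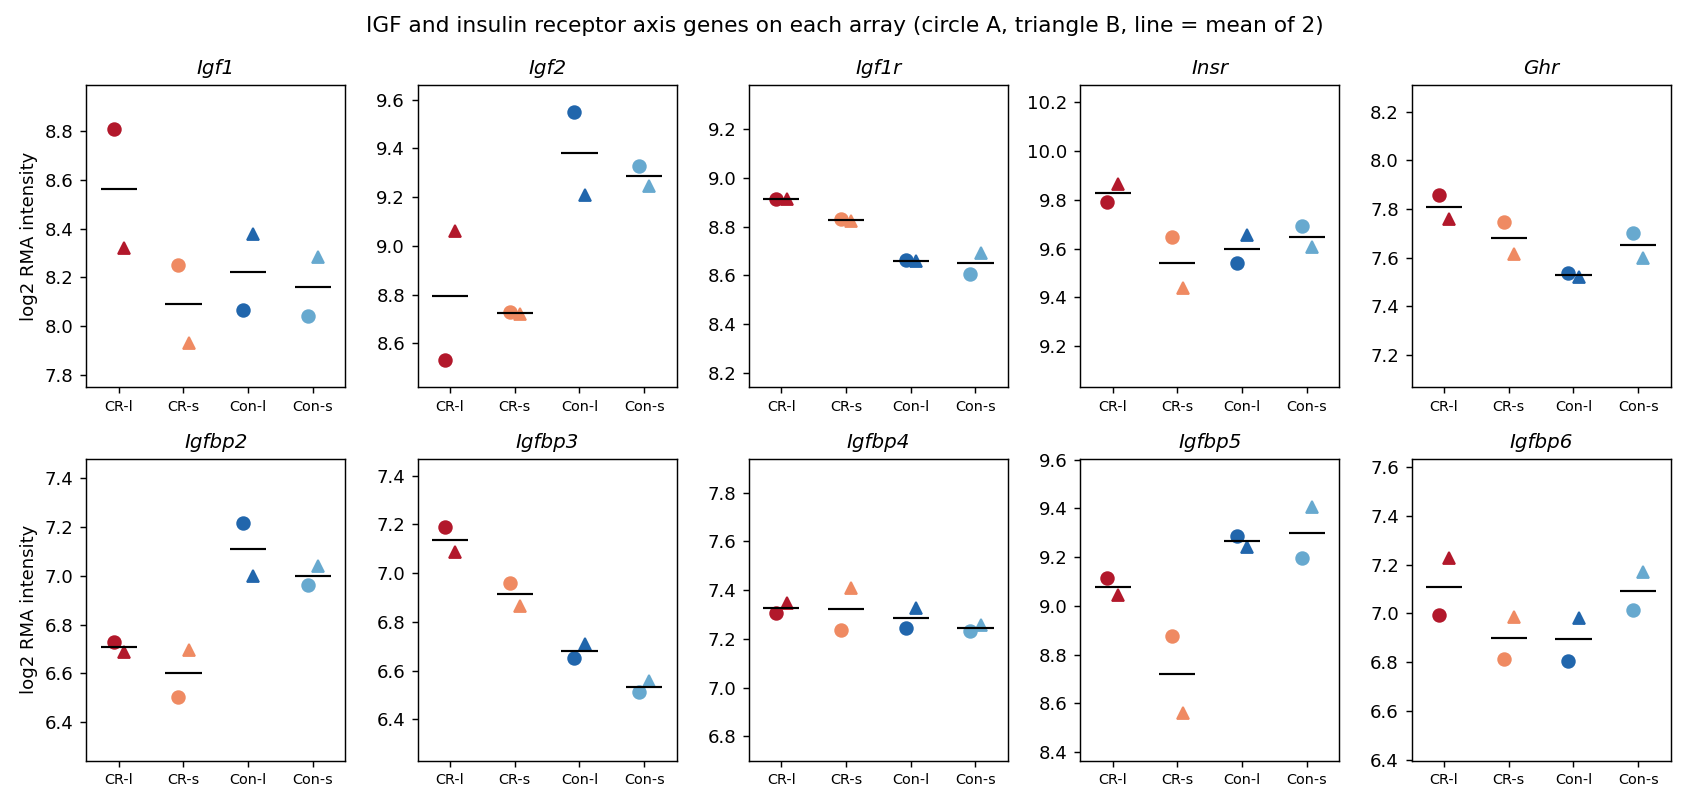
Log2 RMA intensity (vertical axis, each panel spanning the same log2 range) of the 10 members on each array, by group (horizontal axis), with circles for replicate A, triangles for replicate B and a line at the mean of 2. Igfbp3 steps down over CR-l, CR-s, Con-l and Con-s without overlap, while Igfbp2, Igf2 and Igfbp5 lie lower on all 4 CR arrays than on any Con array.

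Igfbp3 (probe set 10778390) had log2 intensities of 7.19 and 7.09 in CR-l, 6.96 and 6.87 in CR-s, 6.65 and 6.71 in Con-l, and 6.51 and 6.56 in Con-s. Every CR array exceeded every Con array, and no neighbouring groups in this order overlapped. The CR mean was 7.03 ± 0.14 and the Con mean 6.61 ± 0.09 (SD, n = 4 each), a log2 difference of 0.42 (SE 0.05, adjusted p = 0.0223).

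Igfbp2 (probe set 10924223) measured 6.73 and 6.69 in CR-l, 6.50 and 6.69 in CR-s, 7.22 and 7.0 in Con-l, and 6.96 and 7.04 in Con-s. The diets separated, whereas leptin and saline overlapped within each diet. The CR mean was 6.65 ± 0.10 and the Con mean 7.05 ± 0.11 (SD, n = 4 each), a log2 difference of -0.40 (SE 0.07, adjusted p = 0.0455). In bulk tissue, fewer cells of a type and less RNA per cell cannot be told apart.

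These calls rest on all 8 arrays: without any single one, Igfbp3 had a difference of 0.39 to 0.44 (adjusted p = 0.0605 to 0.0925) and Igfbp2 of -0.46 to -0.35 (adjusted p = 0.0741 to 0.168), and neither passed. With the replicate letters A and B as a block, Igfbp2 did not pass (adjusted p = 0.0854). Both genes were among the dimmer members, with intensities of 91.2 to 145.9 for Igfbp3 and 90.8 to 148.8 for Igfbp2. The array medians were 111.8 to 114.1.

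Igfbp5, which binds extracellular matrix as well as IGFs, measured 9.12 and 9.04 in CR-l, 8.88 and 8.56 in CR-s, 9.29 and 9.24 in Con-l, and 9.19 and 9.41 in Con-s (probe set 10928837). CR-s was lowest, CR-l lay between it and the control groups, and Con-l overlapped Con-s. The averaged diet difference was -0.38 (SE 0.08, adjusted p = 0.0855). Its chromosomal neighbour Igfbp2 differed in the same direction, while the genes flanking this pair, Rpl37a and Tnp1, differed by -0.02 and 0.05 (SE 0.05 each). Igfbp1, the neighbour of Igfbp3, differed by 0.14 (SE 0.08, adjusted p = 0.43).

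Igfbp4, known to restrain IGF action, lay between 7.24 and 7.41 on CR arrays and between 7.23 and 7.33 on Con arrays, a difference of 0.06 (SE 0.05, 95% interval -0.06 to 0.18). Igfbp6, which prefers IGF2, lay between 6.81 and 7.23 on CR arrays and between 6.80 and 7.17 on Con arrays, a difference of 0.01 (SE 0.08, 95% interval -0.17 to 0.20). The diets overlapped in both genes. Their probe sets are 10738140 and 10899465.

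Among the ligands, Igf2 (probe set 10726999) measured 8.53 and 9.06 in CR-l, 8.73 and 8.72 in CR-s, 9.55 and 9.21 in Con-l, and 9.33 and 9.25 in Con-s. All CR arrays were below all Con arrays, and the spread within CR-l and within Con-l was wide. The diet difference of -0.57 was the largest in size among the members (SE 0.12, adjusted p = 0.0887) and did not pass.

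Igf1 (probe set 10894695) measured 8.81 and 8.32 in CR-l, 8.25 and 7.93 in CR-s, 8.07 and 8.38 in Con-l, and 8.04 and 8.28 in Con-s. The highest value was that of CR-l replicate A, and the diets overlapped over the other 7 arrays. The diet difference was 0.14 (SE 0.14, 95% interval -0.18 to 0.45, adjusted p = 0.686).

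Among the receptors, Igf1r (probe set 10707889) measured 8.91 and 8.91 in CR-l, 8.83 and 8.82 in CR-s, 8.66 and 8.66 in Con-l, and 8.61 and 8.69 in Con-s. Replicates lay close together, the CR groups were above the control groups, and Con-l fell inside the range of Con-s. The difference was 0.22 (SE 0.04, adjusted p = 0.0639).

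Insr (probe set 10756251) averaged 9.69 ± 0.19 on CR arrays and 9.62 ± 0.07 on Con arrays (SD, n = 4 each), a difference of 0.06 (SE 0.06, 95% interval -0.08 to 0.21). Its dimmer second probe set, 10756229, had a difference of 0.08 (SE 0.04, adjusted p = 0.433). Ghr (probe set 10821632) averaged 7.74 ± 0.10 on CR arrays and 7.59 ± 0.08 on Con arrays, a difference of 0.15 (SE 0.05, adjusted p = 0.223). The diets overlapped in both genes.

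**Figure D2:**
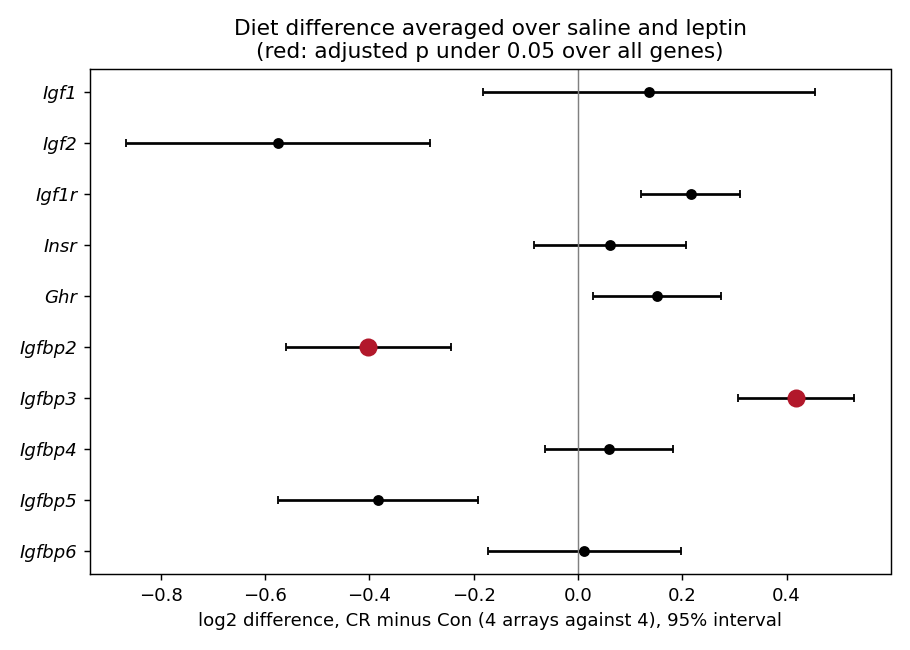
Log2 difference between CR and Con arrays, averaged over saline and leptin (horizontal axis), for each member (vertical axis), with 95% intervals from limma and red points for the members that passed over all genes. Igfbp3 at 0.42 and Igfbp2 at -0.40 are red, and the intervals of Igf2, Igf1r, Ghr and Igfbp5 also leave out 0 without passing after adjustment.

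Over the 10 members, 2 were higher and 3 lower with no overlap between the diets, where 4.52% and 6.67% of all genes were. At an unadjusted p under 0.05 there were 3 higher and 3 lower, where 6.71% and 9.04% of all genes were. The median difference of the 10 members was 0.06 and their median size 0.18, against 0.00 and 0.06 over all 14506 genes. The members were named with earlier results of these arrays known, so these counts describe them and are no test of the group.

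Within the treatments the diet differences had the following sizes. Under leptin (CR-l against Con-l), Igfbp3 differed by 0.46 (SE 0.07, adjusted p = 0.0617), Igf1r by 0.25 (SE 0.06, adjusted p = 0.143) and Igfbp2 by -0.40 (SE 0.10, adjusted p = 0.158). Under saline (CR-s against Con-s), Igfbp3 differed by 0.38 (SE 0.07, adjusted p = 0.255), Igf1r by 0.18 (SE 0.06, adjusted p = 0.46) and Igfbp2 by -0.40 (SE 0.10, adjusted p = 0.352). Igfbp3, Igf1r and Igfbp2 thus had the direction of the averaged comparison in both arms.

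Igf2 gave -0.59 under leptin and -0.56 under saline (SE 0.18 each), and Igfbp5 gave -0.19 under leptin and -0.58 under saline (SE 0.12 each). Ghr stood at 0.28 under leptin and 0.03 under saline (SE 0.07 each), and Igfbp4 at 0.04 and 0.08 (SE 0.07 each). Insr, Igfbp6 and Igf1 had opposite directions in the arms. Under leptin and saline, Insr gave 0.23 and -0.11 (SE 0.09 each), with 0.16 and -0.01 (SE 0.06 each) for its second probe set. Igfbp6 gave 0.22 and -0.19 (SE 0.11 each), and Igf1 gave 0.34 and -0.07 (SE 0.19 each). None of the 10 members passed in limma in either arm, where 0.0207% of all genes passed under leptin and 0% under saline. Under leptin 4 members higher and 2 lower had an unadjusted p under 0.05, where 6.92% and 7.27% of all genes did, and under saline the counts were 2 and 3, where 3.4% and 5.1% did.

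Leptin-treated restricted offspring were also set against saline controls (CR-l against Con-s), the comparison that bears on whether leptin brings these genes back to the control level. Igfbp3 differed by 0.60 (SE 0.07, adjusted p = 0.0672), Igf1r by 0.26 (SE 0.06, adjusted p = 0.19), Igf2 by -0.49 (SE 0.18, adjusted p = 0.345), Igfbp2 by -0.29 (SE 0.10, adjusted p = 0.314) and Igfbp5 by -0.22 (SE 0.12, adjusted p = 0.492). The difference of CR-s from the same Con-s arrays was 0.38 for Igfbp3, -0.58 for Igfbp5 and -0.40 for Igfbp2. What separates both sets of values is CR-l against CR-s, in which neither these genes nor any other member passed. None of the members passed in limma, with 2 higher and 2 lower at an unadjusted p under 0.05 (5.71% and 6.5% of all genes), where 0.0138% of all genes passed.

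Early leptin in the restricted arm, CR-l against CR-s, went with a difference above 0 in all 10 members, between 0.00 for Igfbp4, which turned to just below 0 under quantile normalization, and 0.47 for Igf1. None passed in limma, and 0% of all genes did. Igf1 differed by 0.47 (SE 0.19), Igfbp5 by 0.36 (SE 0.12), Insr by 0.28 (SE 0.09) and Igfbp3 by 0.23 (SE 0.07), and the adjusted p was 0.808 for all 4. These 4 had an unadjusted p under 0.05, where 3.05% of all genes were higher at that level. In 7 members both CR-l arrays exceeded both CR-s arrays, where 20.5% of genes did, and 53% of genes had a difference above 0.

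The size of these leptin differences leaned on single arrays. Insr measured 9.79 and 9.86 in CR-l, 9.65 and 9.44 in CR-s, 9.54 and 9.66 in Con-l, and 9.69 and 9.61 in Con-s. CR-s replicate B, the array of lowest interquartile range, was the lowest of all 8 arrays for Insr, Igfbp5 and Igf1. Without it the differences were 0.18 for Insr, 0.20 for Igfbp5 and 0.31 for Igf1, and without CR-l replicate A that of Igf1 was 0.23. The second Insr probe set differed by 0.12 (SE 0.06, unadjusted p = 0.0817 in limma), with 8.08 and 8.14 in CR-l and 7.99 on both CR-s arrays.

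Among controls, Con-l set against Con-s, 6 members were higher and 4 lower, and none passed in limma or had an unadjusted p under 0.05, where 4.19% of all genes did. The differences were 0.15 (SE 0.07) for Igfbp3, -0.20 (SE 0.11) for Igfbp6, -0.12 (SE 0.07) for Ghr, 0.11 (SE 0.10) for Igfbp2, 0.09 (SE 0.18) for Igf2, 0.06 (SE 0.19) for Igf1 and -0.05 (SE 0.09) for Insr. Igf1r, Igfbp4 and Igfbp5 lay between -0.04 and 0.04. Ghr and Igfbp6 were lower on both Con-l arrays than on both Con-s arrays, as 16.5% of all genes were, and higher on both CR-l arrays than on both CR-s arrays.

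**Figure D3:**
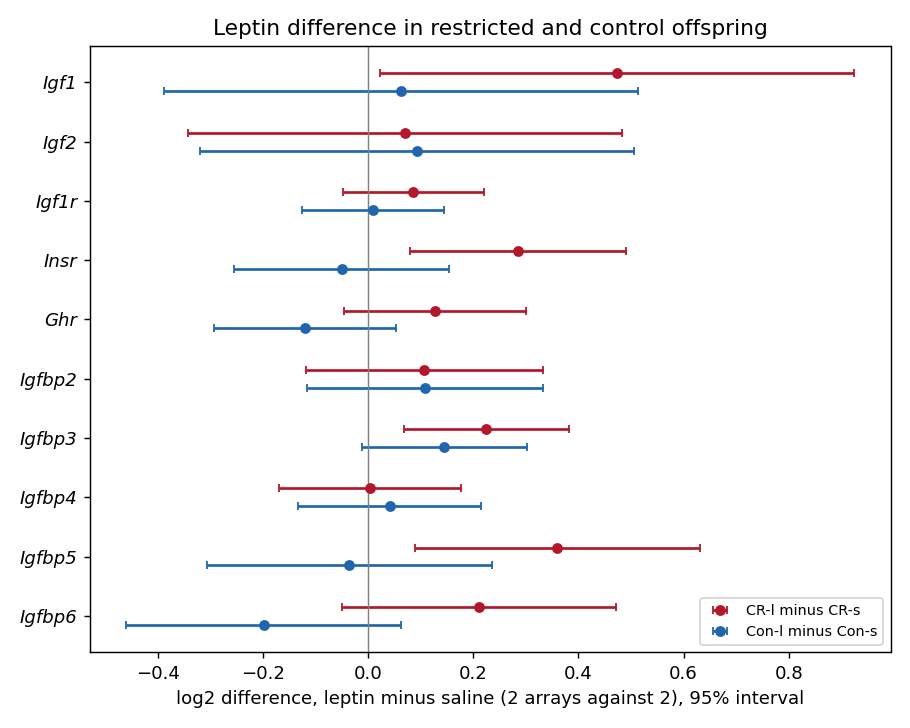
Log2 difference between leptin and saline arrays (horizontal axis) for each member (vertical axis), in restricted offspring in red and in control offspring in blue, with 95% intervals from limma over 2 arrays against 2. All red points lie at or above 0 (Igfbp4 just below it under quantile normalization), while blue points lie between -0.20 for Igfbp6 and 0.15 for Igfbp3, and every blue interval includes 0.

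The difference between the leptin effects of both diets was tested directly as an interaction. It was 0.41 for Igfbp6 (SE 0.16), 0.41 for Igf1 (SE 0.27), 0.40 for Igfbp5 (SE 0.16), 0.34 for Insr (SE 0.12) and 0.25 for Ghr (SE 0.10), with adjusted p-values of 0.898 to 0.907 for these 5, so a difference between diets was not shown for them. The other members lay between -0.04 and 0.08. Of the 10 members 0 passed in limma, and 4 were higher at an unadjusted p under 0.05, where 2.42% of all genes were. Insr is among these 4 through its brighter probe set only. Its second probe set had an interaction of 0.17 (SE 0.08, unadjusted p = 0.0804 in limma).

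Averaged over both diets (4 leptin arrays against 4 saline arrays), all 10 members had a difference above 0, from 0.00 for Ghr, which turned to just below 0 under cyclic loess and quantile normalization, to 0.27 for Igf1, where 52.2% of genes did. Igfbp3 differed by 0.19 (SE 0.05, 95% interval 0.07 to 0.30, adjusted p = 0.913) and was the 1 member at an unadjusted p under 0.05, where 2.52% of all genes were higher. No member passed in limma, and in no member did the leptin and saline arrays separate, where 1.27% of genes were higher and 1.1% lower without overlap.

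Other genes of the pathway were listed by role. Of 14 measured ligands, binding proteins and their proteases, 0 passed in limma in the averaged diet comparison, with 1 higher and 1 lower at an unadjusted p under 0.05 and a median of 0.03. Ide, the insulin-degrading enzyme, differed by -0.19 (SE 0.05, adjusted p = 0.114) and Htra1, a protease that cleaves IGF binding proteins, by 0.12 (SE 0.04, adjusted p = 0.238). Under leptin in restricted offspring, Igf2bp1, which binds Igf2 mRNA, differed by -0.18 (SE 0.08) and Igfals, the partner of Igfbp3 in blood, by -0.23 (SE 0.16), both short of the threshold. These genes were dim, at intensities of 47.8 to 59.7 for Igf2bp1 and 66.5 to 95.5 for Igfals, below every array median.

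In the growth hormone arm 0 of 10 genes passed in limma, with 1 higher and 2 lower at an unadjusted p under 0.05 and a median of -0.05. Cish and Socs2, feedback inhibitors induced by STAT5, had differences of -0.22 with an SE of 0.06 (adjusted p = 0.165) for Cish and -0.20 with an SE of 0.06 (adjusted p = 0.197) for Socs2. Under leptin in restricted offspring Cish differed by -0.18 (SE 0.09) and Gh1, growth hormone itself, by -0.35 (SE 0.15), neither passing. Gh1 was dim, at intensities of 43.5 to 68.6 over the arrays, below every array median.

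Of 10 receptor adaptors and phosphatases 0 passed in limma, with 0 higher and 1 lower at an unadjusted p under 0.05 and a median of -0.01. The adaptor Shc1 differed by -0.16 (SE 0.06, adjusted p = 0.245) and the receptor-binding inhibitor Grb10 by 0.12 (SE 0.06, adjusted p = 0.418). Under leptin in restricted offspring Shc1 stood at 0.12 (SE 0.08) and the phosphatase Ptpn11 at -0.09 (SE 0.07).

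Of 19 genes of the PI3K, AKT, FOXO and mTOR cascade 0 passed in limma, with 1 higher and 1 lower at an unadjusted p under 0.05 and a median of 0.01. The kinase Akt1 differed by 0.10 (SE 0.04, adjusted p = 0.266) and Trib3, a pseudokinase that binds AKT, by -0.19 (SE 0.07, adjusted p = 0.245). Under leptin in restricted offspring Mtor differed by 0.14 (SE 0.06) and Trib3 by -0.23 (SE 0.10), and neither passed. Trib3 was dim, at intensities of 35.9 to 48.1 over the arrays, below every array median. No gene of the 4 lists passed in any of the 8 comparisons, and the median over all genes was 0.00 in the averaged diet comparison.

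Of the sources of IGF ligands and binding proteins named above, meninges had a marker list that moved with diet as a whole. The median diet difference was -0.0019 for choroid plexus markers and 0.015 for hypothalamic neuron markers. The choroid plexus markers were dim. On CR arrays all of them lay below every array median, and on Con arrays few values lay above. Their median difference therefore does not tell whether choroid plexus changed with diet. Of 12 measured meningeal markers all were lower in CR and 3 fell: Ogn by 1.21, Slc6a13 by 0.60 and Col1a2 by 0.32 on the log2 scale. Their summed intensity was 2469 to 2774 in CR-l, 2458 to 2493 in CR-s, 3422 to 4458 in Con-l and 3227 to 3502 in Con-s. The diets did not overlap in this sum, as they did not for Igf2, Igfbp2, Igfbp5, Igf1r and Igfbp3. They also did not overlap in the sums of choroid plexus, oligodendrocyte, mural cell and red blood cell markers. The part of meninges in the Igf2 and Igfbp2 differences was not tested.

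Choroid plexus markers were lower in 5 of 10, of which Kcnj13 fell, by 1.17 on the log2 scale. Their sum was 662 to 677 in CR-l, 676 to 681 in CR-s, 701 to 761 in Con-l and 724 to 755 in Con-s. Kcnj13 alone measured 39.7 to 58.5 on CR arrays and 94.6 to 151.4 on Con arrays, so the gap in the sum is that of this gene and not of the list. All 11 oligodendrocyte markers were lower in CR and 3 fell, with sums of 39698 to 40086 in CR-l, 39686 to 43134 in CR-s, 49006 to 50214 in Con-l and 45614 to 48514 in Con-s. All 7 red blood cell markers were lower and 5 fell. Mural cell markers were lower in 10 of 12 and 2 fell (Tagln and Rgs5), and endothelial markers in 8 of 12 with none passing in limma (1 higher and 4 lower at an unadjusted p under 0.05). Their part in the member differences was likewise not tested.

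Astrocyte markers were lower in 6 of 11 and 1 fell (Gfap), with 2 higher and 4 lower at an unadjusted p under 0.05. Ntsr2 differed by -0.32 and Aqp4 by -0.42 without passing. Tanycyte and ependymal markers were lower in 5 of 9 with none passing in limma (1 lower at an unadjusted p under 0.05). Microglial markers were lower in 4 of 11 while 1 (Ctss) rose, with 2 higher and 2 lower at that level. Of 15 hypothalamic neuron markers 2 rose (Npy and Agrp) and 1 fell (Oxt), and of 7 pituitary markers none passed in limma, with 0 at an unadjusted p under 0.05. These lists had median differences between -0.01 and 0.04, against -0.34 for meninges, -0.25 for oligodendrocytes and -1.17 for red blood cells. Every marker gave a signal above 0 on every array, as RMA values do.

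**Figure D4:**
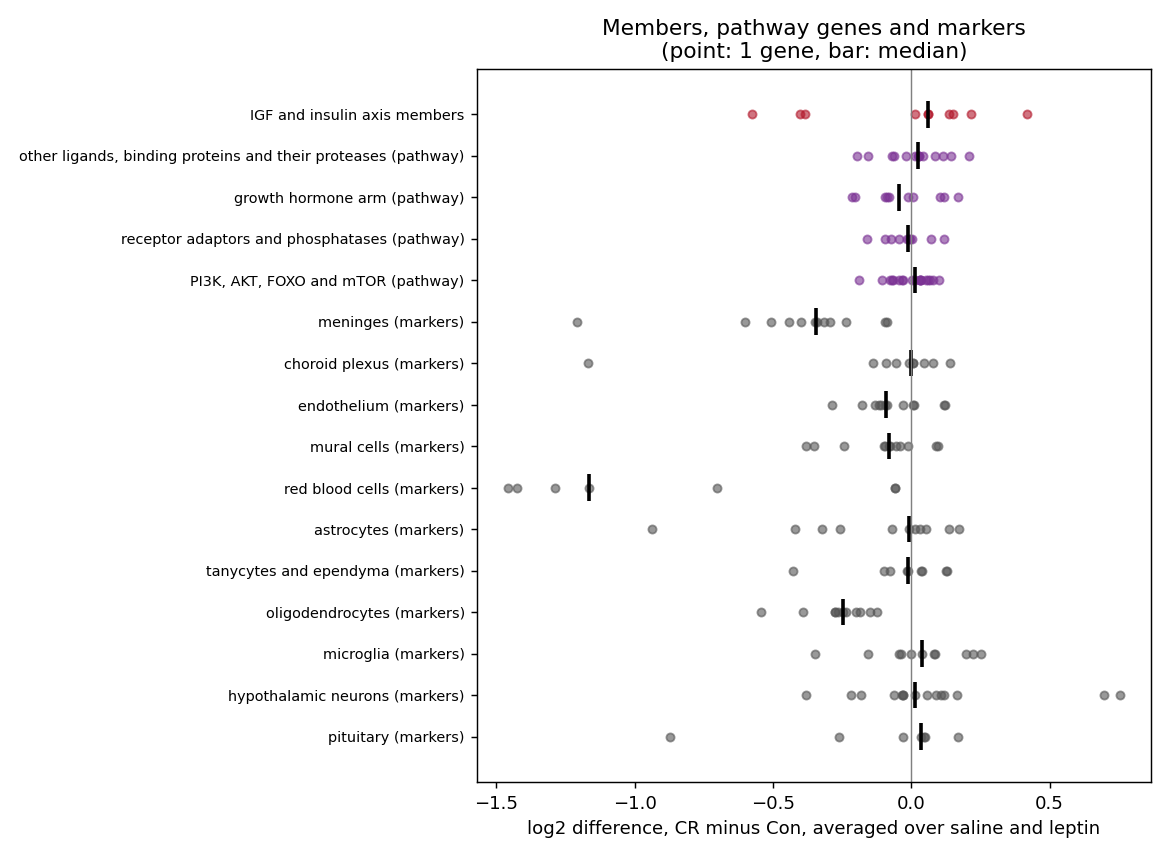
Log2 difference between CR and Con arrays, averaged over saline and leptin (horizontal axis), for each gene (point) of the members in red, 4 further pathway lists in purple and the cell marker lists in grey (vertical axis), with a bar at each median. Members spread from -0.57 for Igf2 to 0.42 for Igfbp3, wider than the pathway lists, while meningeal, oligodendrocyte and red blood cell markers lie below 0.

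Genes with the most similar pattern were sought by Pearson's r over the 8 arrays, among 2696 genes (2697 for Insr) whose SD over the arrays was at least 0.15. The arrays share groups and a normalization, so r describes likeness and carries no p. Igfbp3 was nearest to Si (r = 0.97), Pnpla2 (0.97), Sult2b1 (0.97), Tmem178a (0.96) and Siah3 (0.96), with rho between 0.86 and 0.98. Igfbp2 was nearest to Rrm2 (r = 0.98), Gdf11 (0.98), Slc26a2 (0.97), Dhcr7 (0.97) and Lss (0.96), with rho between 0.90 and 1. Igf1 was nearest to Chrna3 (r = 0.94), Agtr2 (0.94), Necab3 (0.94), Grm4 (0.94) and Galnt14 (0.93), and Insr to Pcdhb4 (0.95), Casp4 (0.93), Cavin4 (0.92), Nabp1 (0.89) and Slco6c1 (0.88).

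Among the members themselves the closest pair by r was Igf1r and Igfbp3 (r = 0.96, rho = 0.90), both highest in CR-l. The most opposed by r was Igf1r and Igf2 (r = -0.81, rho = -0.79), over 8 arrays and with diet groups in common. By rho, Igfbp2 and Igfbp5 were equally close (rho = 0.90, r = 0.74), and Igf2 and Igfbp3 were the most opposed (rho = -0.83, r = -0.79). Igf2 and Igfbp2 stood at r = 0.86 (rho = 0.71). Replicate spread differed between the members: the SD within groups was 0.03 for Igf1r and 0.05 for Igfbp3, against 0.25 for Igf1 and 0.22 for Igf2, where the median gene had 0.08.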

How the data were processed

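Hypothalamic RNA of 8 samples was measured on arrays. Each deposited value is the intensity of a probe set, linear as judged from its range, which the authors obtained by RMA in Affymetrix Expression Console per the submitters' processing notes. They were log2-transformed and not normalized again. Symbols were updated through Entrez numbers: 15310 of 29215 probe sets carry 1 symbol, 323 several, and the rest are unnamed here. The brightest probe set per gene by mean over the 8 arrays was kept, with no filter on dim ones. RMA values carry no detection call, and the number of arrays limits the precision. A limma model with 4 group means (limma 3.58.1, R 4.3.3, two-sided, 4 residual and 3.21 prior degrees of freedom) gave moderated standard errors, 95% intervals and Benjamini-Hochberg adjusted p-values over 14506 genes. On simulated data with 200 of 14506 genes changed by a log2 value of 1, the averaged diet comparison recovered 192 of them, with 11 false calls among the unchanged genes. That change is larger than any member difference in this comparison (at most 0.57 in size), so the recovery does not tell how often differences of member size would be found.

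Named were all members, pathway genes that passed, the 2 with the smallest p per list in the averaged diet comparison and in CR-l against CR-s, up to 3 leading markers per list, and the 5 most similar genes of Igf1, Insr and each member that passed. Igfbp1, Rpl37a, Tnp1, Pmch, Hcrt, Pomc and Ghrh were named outside this rule, after their values were seen, as were the motifs searched. Members and lists were chosen with earlier results of these data known. Some listed pathway genes, such as Irs2, were not analysed here. The alternatives were cyclic loess, quantile normalization, the upper 60 percent of genes, trend and robust settings, averaged probe sets, all probe sets, own groups only, a replicate block and leaving out each array. Differences between replicates A and B correlated between groups at -0.06 to 0.11, so the letters were not taken to pair samples.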

Additional observations from a re-analysis of the deposited data

How the results depend on the processing

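In the averaged diet comparison 2 of 10 members passed. The count was 4 with trend and robust settings (Igf1r and Igfbp5 added), 4 with diet alone as the factor (Igf2 and Igf1r added), 0 with all probe sets tested together, where no gene passed at all, 1 with the replicate block, and 0 whichever array was left out. Over all genes 175 passed, against 744 with trend and robust settings, 609 among the upper 60 percent, 267 with diet alone, 87 with the block and 0 to 27 without 1 array. Igfbp2 and Igfbp3, the 2 members that passed in the main setting, were the only members too dim for the upper 60 percent of genes. They were therefore not tested there, and Igf2 (adjusted p = 0.0305), Igf1r (adjusted p = 0.0149) and Igfbp5 (adjusted p = 0.0285) passed. With trend and robust settings 1 member passed in CR-s against Con-s (Igfbp5), 2 in CR-l against Con-l (Igf1r and Igfbp3) and 2 in CR-l against Con-s (Igf1r and Igfbp3), and among the upper 60 percent 1 in CR-l against Con-l (Igf1r). The causes were not tested. The interaction was not run on its own groups alone, since it uses all 4. The replicate block, which rests on letters that do not pair the samples, changed no other member's call.

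Of 1254 recomputed member values 48 changed sign, all for differences of 0.11 or less in size. Under scaling these were Igfbp4 in CR-l against CR-s (-0.00091, quantile), Ghr in the averaged leptin comparison (-0.0063, cyclic loess, and -0.0057, quantile) and the Igfbp2 interaction (0.016 and 0.034). Without 1 array, CR-s against Con-s ranged from -0.038 to 0.094 for Ghr, -0.23 to 0.089 for Igf1 and -0.0069 to 0.16 for Igfbp4. CR-l against CR-s ranged from -0.19 to 0.34 for Igf2 and -0.080 to 0.089 for Igfbp4. CR-l against Con-l ranged from -0.0011 to 0.083 for Igfbp4, and CR-l against Con-s from -0.097 to 0.13 for Igfbp6. Con-l against Con-s ranged from -0.093 to 0.22 for Igf1, -0.032 to 0.052 for Igf1r, -0.077 to 0.26 for Igf2, -0.00014 to 0.22 for Igfbp2, -0.0014 to 0.083 for Igfbp4, -0.14 to 0.070 for Igfbp5 and -0.11 to 0.0078 for Insr. The averaged leptin difference ranged from -0.029 to 0.036 for Ghr, -0.050 to 0.21 for Igf2, -0.020 to 0.065 for Igfbp4 and -0.051 to 0.064 for Igfbp6, the averaged diet difference of Igfbp6 from -0.045 to 0.070, and the interaction from -0.29 to 0.24 for Igf2, -0.11 to 0.11 for Igfbp2 and -0.12 to 0.048 for Igfbp4.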
